A study of Allium sativum with 18 samples.

Results

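Of the 57561 garlic gene IDs measured, 42 were well expressed in the bulb before germination in both basal and storage clove. In both tissues these genes had fallen to at most 20% of their dormant mean once the bulb germinated. They were chosen by their values. The mean FPKM (fragments scaled to gene length and to the size of the library, the unit the authors deposited) had to be at least 20 in basal and in storage clove of enlarging and of dormant bulbs, which 7177 genes met. In germinating bulbs the mean then had to be at most 20% of the dormant mean in basal clove, which 62 of these genes met, and in storage clove, which 147 met. The 42 genes that met both limits were 67.7% of the former list, 28.6% of the latter and 0.585% of the 7177. Since these values made the choice, the fall at germination is described below and not tested.

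RNA was sequenced from bulbs of garlic (*Allium sativum*) of plants labelled Chalingzipisuan, with no transgene or treatment named in the labels. Basal clove and storage clove were parted by hand at 3 stages, in enlarging bulbs (collected a week after the flower stems sprouted), in dormant bulbs and in germinating bulbs with short shoots. The 18 libraries thus fall into 6 groups with 3 biological replicates each, and hold 6540146 to 21897520 reads assigned to genes. The labels do not say how many bulbs went into a library or how old the plants were. The IDs are not paired with gene names or descriptions in the files used here, so neither a function nor a cell type marker could be looked up, and the labelled tissues could not be checked against markers.

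As background, a garlic clove is a storage organ. Its fleshy storage leaf takes up reserves, chiefly fructans together with abundant proteins, while the bulb fills, and surrounds a bud that sits on a disc of stem tissue, from which roots and new leaves grow. Dormancy is a period without visible growth, and at germination the bud draws on the reserves of the storage tissue.

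A pair of libraries stood closest to the opposite tissue relative to their replicates. For storage enlarging replicate 2 the mean Spearman correlation with basal clove of the same stage was 0.895, where its replicates had 0.868 and 0.857. For basal germinating replicate 3 that with storage clove was 0.829, where its replicates had 0.798 and 0.778. Leaving out both, a check added after the data were seen, 43 genes met the rule, 41 of them among the 42. Storage germinating replicate 1 was also somewhat nearer to basal clove, at 0.823 against 0.779 and 0.804, and without it 43 genes met the rule, the 42 among them. Among the 42 genes, storage enlarging replicate 2 was the lowest of its group for 21, replicate 3 for 18 and replicate 1 for 3. Basal germinating replicate 3 was the highest of its group for 3 genes, replicate 1 for 8 and replicate 2 for 31. The part of these libraries' likeness to the other tissue in the results below was not tested beyond leaving them out. Asa2G06168.1 was highest in that replicate, at 7.15 FPKM in replicate 3 against 0.894 and 0.892 FPKM.

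Together the 42 genes held a larger share of all expression before germination than after it, above all in storage clove. In enlarging bulbs their summed FPKM was 1.48%, 1.54% and 1.48% of the library's total in basal clove and 2.58%, 2.32% and 2.90% in storage clove. In dormant bulbs it was 0.857%, 0.856% and 0.835% in basal clove and 3.10%, 3.94% and 3.41% in storage clove. The shares of storage clove lay above those of basal clove in every library at both stages, and from enlarging to dormant the share was lower in basal and higher in storage clove with no overlap of libraries. As a share of reads, to which short genes add less, these were 0.833% to 0.856% and 0.457% to 0.458% in enlarging and dormant basal clove and 1.27% to 1.59% and 1.76% to 2.23% in storage clove, with the same order. At germination it was 0.0649%, 0.085% and 0.0617% in basal clove and 0.113%, 0.0987% and 0.126% in storage clove by FPKM, and 0.0351% to 0.0486% and 0.0592% to 0.0813% by reads. These are shares of RNA from whole tissue, in which fewer cells of a type and less RNA per cell cannot be told apart. A few abundant genes weigh heavily in the sums. From enlarging to dormant, Asa6G02065.1 went from 6313 to 3108 FPKM in basal clove. In storage clove Asa2G05822.1 went from 2021 to 4054 FPKM and Asa7G03238.1 from 134 to 2068 FPKM. Asa0G04006.1 went there from 2169 to 3729 FPKM and Asa7G03244.1 from 1719 to 2771 FPKM. The latter pair had overlapping libraries and no call in the test below. Gene by gene, 13 rose and 2 fell in storage clove by the test below. The fall at germination was set by the rule.

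**Figure D1:**
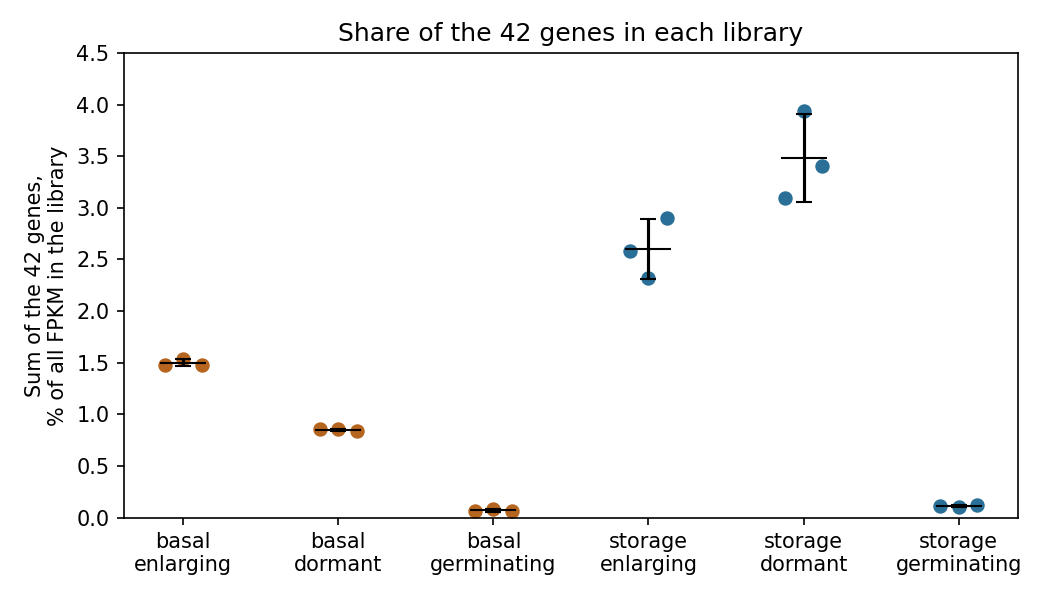
Summed FPKM of the 42 genes as a percentage of all FPKM in each library (vertical axis), for basal clove (brown) and storage clove (blue) at 3 stages; points are libraries, and the bar is the mean with the SD of 3 libraries. The share went from 1.5% to 0.849% and 0.0705% in basal clove and from 2.60% to 3.48% and 0.113% in storage clove.

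The size of the fall ranged widely among the 42 genes. The share of the dormant level that was kept at germination ran from 0.458% to 19.0% in basal clove, with a median of 6.97%, and from 0.227% to 18.5% in storage clove, with a median of 4.51%. Among the 7177 genes at the same minimum level the medians were 73.4% and 84.0%. Less than 5% was kept by 11 genes in basal clove and by 22 in storage clove, and less than 1% by 2 and by 6. For 31 of the 42 genes the kept share was smaller in storage than in basal clove. The rule used these shares, and the count was not made over other genes, so it is a description. In each of the 42 genes and in both tissues, the 3 germinating libraries were all below the 3 dormant and the 3 enlarging ones, though these are the values the rule used.

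**Figure D2:**
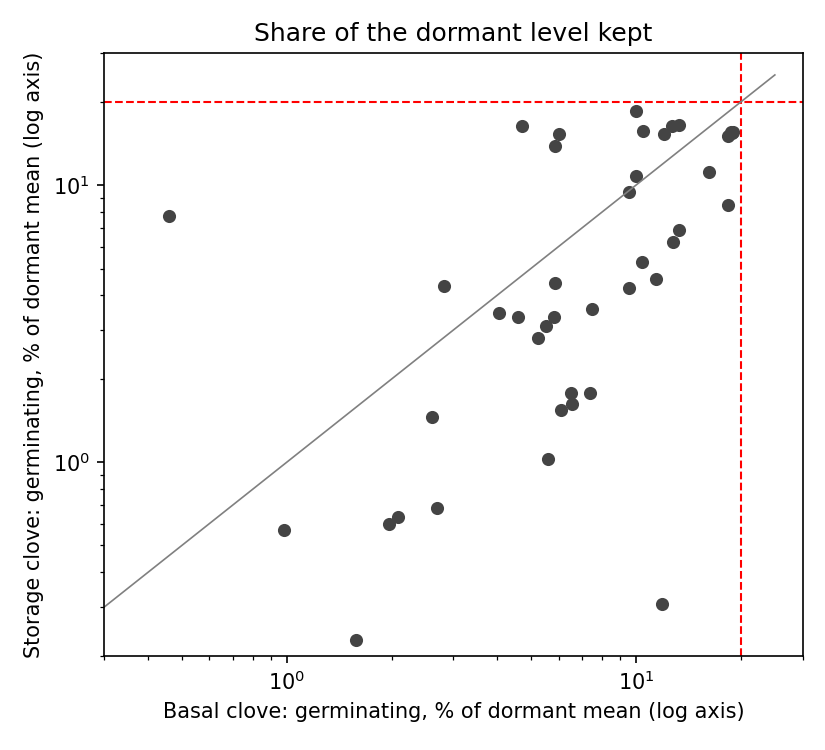
Share of the dormant mean kept at germination in basal clove (horizontal axis, %, log scale) and storage clove (vertical axis, %, log scale), 1 point for each of the 42 genes; dashed lines mark the 20% limit of the rule and the solid line equal shares. Medians were 6.97% in basal and 4.51% in storage clove, and 31 genes lie below the line of equal shares.

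The remainder was mostly the higher in storage clove, as it was for many other genes. At germination the median level of the 42 genes was 6.88 FPKM in basal clove, with a range of 0.213 to 355, and 15.1 FPKM in storage clove, with a range of 2.21 to 220. The mean was below 20 FPKM for 34 genes in basal and 25 in storage clove, and below 5 FPKM for 17 and 7. The germinating mean was higher in storage clove for 38 of the 42 genes, 90.5%, where it was for 58.6% of all genes tested and 70.8% of the 7177. All 3 storage libraries exceeded all 3 basal ones for 26 of the 42, 61.9%, near the 53.7% of the 7177 (36.1% of all genes tested). The reverse held for 2 of the 42, where it held for 16.8% of the 7177 (25.6% of all genes tested). Germinating means entered the rule, so these counts are a description. Most of these low values still rested on counted reads: the median was 75 reads in a basal and 100.5 reads in a storage germinating library, and only 5 of the 252 values rested on 3 reads or fewer.

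The most abundant of the 42, by mean level over the 12 enlarging and dormant libraries, was Asa6G02065.1, with a coding length of 321 bp. It stood at 6066, 6799 and 6073 FPKM in enlarging and 3146, 3411 and 2768 FPKM in dormant basal clove, and at 314, 396 and 356 FPKM in germinating basal clove. In storage clove the values were 3996, 3533 and 3675 FPKM when enlarging, 3315, 3757 and 3628 FPKM when dormant and 153, 141 and 195 FPKM when germinating. So it was the gene with the highest remainder in basal clove, and it kept more there than in storage clove, 11.4% of its dormant mean against 4.57%. Asa8G05233.1 came next, at 906, 926 and 929.7 FPKM in enlarging and 558, 543 and 560.4 FPKM in dormant basal clove. In storage clove it was at 3222, 2788 and 2743 FPKM when enlarging and 2981, 3033 and 2950.4 FPKM when dormant, above the basal libraries at both stages. At germination it was at 41.3, 42.2 and 39.0 FPKM in basal clove, whereas storage clove had 46.5, 47.1 and 66.0 FPKM, 7.37% and 1.78% of the dormant means.

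The smallest shares kept in basal clove belonged to Asa6G03213.1 and Asa7G03267.1. Asa6G03213.1 went from 249.9, 123 and 291 FPKM in dormant to 1.45, 0.505 and 1.09 FPKM in germinating basal clove, 218-fold lower. Counted over the 3 libraries that was 33 reads against 7270, a kept share of 0.454% with an exact 95% counting interval of 0.312% to 0.638%. Asa7G03267.1 went from 24.0, 21.5 and 19.4 FPKM to 0.211, 0.196 and 0.231 FPKM, with only 2 reads in each germinating basal library. Its kept share by pooled reads, 6 against 612, was 0.980% with an interval of 0.358% to 2.15%, and its dormant basal mean of 21.7 FPKM was close to the minimum of the rule. Its levels in storage clove were far higher, 407, 808 and 625 FPKM when dormant and 2.40, 2.65 and 5.38 FPKM when germinating.

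In storage clove the smallest shares kept belonged to Asa2G05822.1 and Asa7G03238.1. Asa2G05822.1 stood at 3949, 4260.3 and 3954 FPKM in dormant storage clove, where it was the most abundant of the 42 by group mean. It was at 11.1, 6.52 and 9.94 FPKM at germination. Its pooled reads were 120 against 31852, where the germinating storage libraries held more reads in total than the dormant ones. Scaled to the library totals, the kept share by pooled reads was 0.224% (interval 0.185% to 0.267%). In basal clove Asa2G05822.1 went from 241, 182 and 189 FPKM to 3.37, 4.47 and 1.85 FPKM, so that the tissue means were 19.8-fold apart when dormant and 2.85-fold apart when germinating. Asa7G03238.1 stood at 1308, 2737 and 2161 FPKM in dormant and at 7.24, 5.55 and 6.31 FPKM in germinating storage clove. Its share by pooled reads, scaled in the same way, was 0.304%, with an interval of 0.263% to 0.348%. All of these intervals cover counting error only. In basal clove the same gene was at 88.2, 48.5 and 84.1 FPKM when dormant and kept 11.9%.

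**Figure D3:**
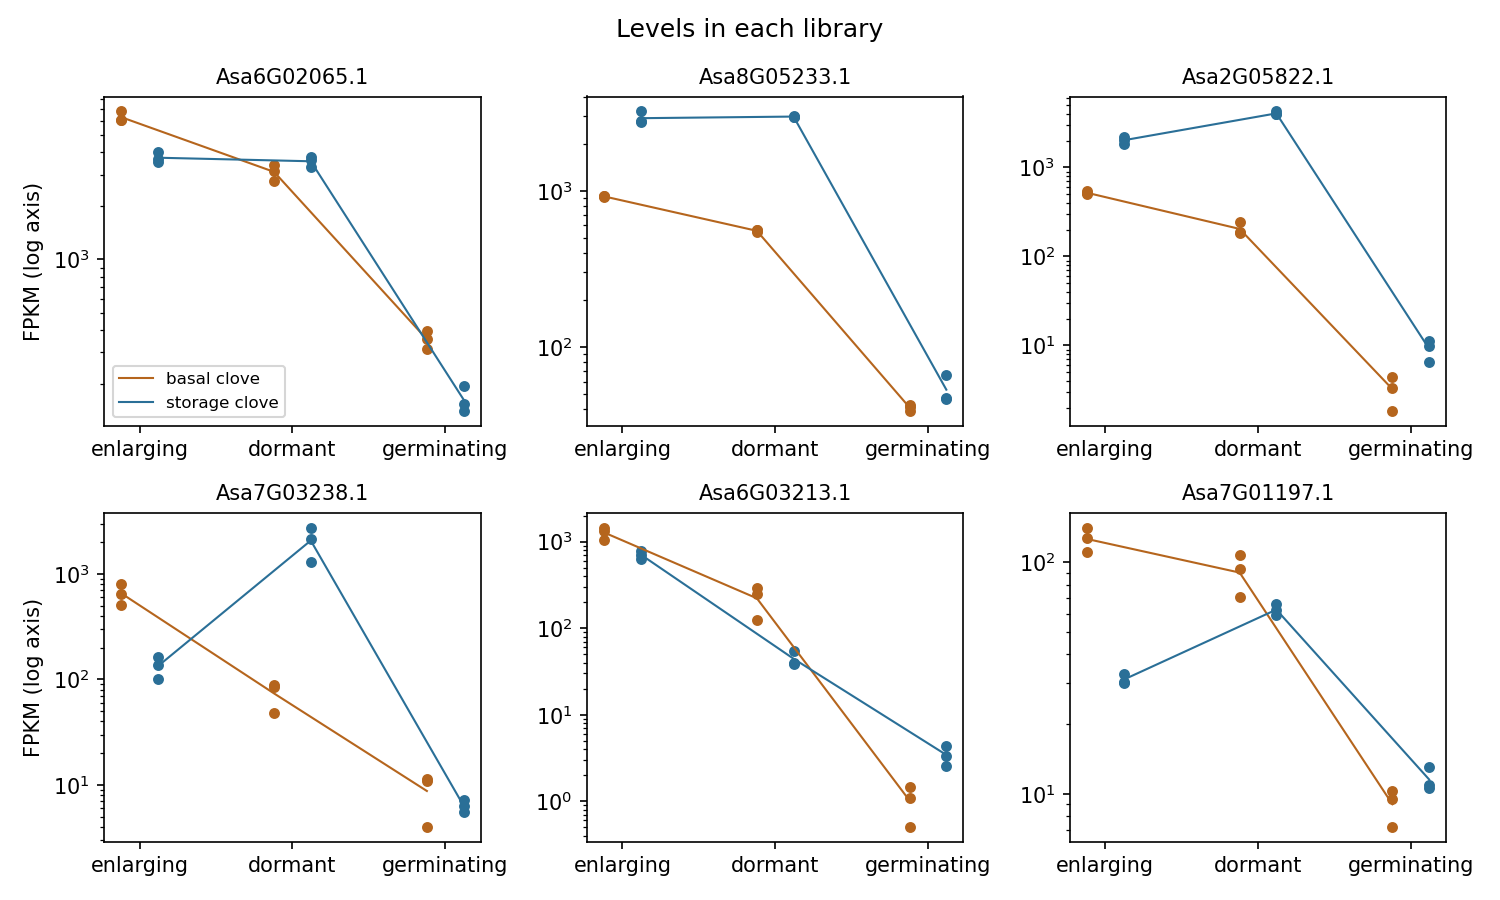
FPKM (vertical axes, log scale, different in each panel) of 6 of the 42 genes at 3 stages in basal clove (brown) and storage clove (blue); points are libraries and lines join the means of 3. All 6 are lowest at germination in both tissues, while their levels from enlarging to dormant bulbs move differently, Asa7G03238.1 falling from 653 to 73.6 FPKM in basal clove and rising from 134 to 2068 FPKM in storage clove.

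The rule did not compare the tissues, but its minimum level used the enlarging and dormant means of both. How far the choice itself moved the shares called below was not tested. The tissue difference was tested with limma on log2(FPKM + 1) over all genes, with Benjamini-Hochberg adjustment and a threshold of 0.05. A difference on this scale understates that of genes with low values. In enlarging bulbs 22 of the 42 genes were lower and 8 were higher in basal than in storage clove, 52.4% and 19.0%. Over all 30530 genes tested, 22.8% were called lower and 28.7% higher in basal clove, and over the 7177 genes at the same minimum level 35.7% and 25.1%. The median log2 difference, basal minus storage, was -0.59 for the 42 genes, 0.06 for all genes tested and -0.07 for the 7177. Without storage enlarging replicate 2 and basal germinating replicate 3, the calls were 23 lower and 8 higher.

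Asa2G06168.1 and Asa7G03244.1 had the largest differences toward storage clove in enlarging bulbs. Asa2G06168.1 was at 149.9, 131 and 101 FPKM in basal clove, whereas storage clove had 907, 772 and 1226 FPKM, a log2 difference of -2.91 (SE 0.42, limma adjusted p = 2.3e-05). Asa7G03244.1 was at 326, 184 and 162 FPKM against 1197, 1078 and 2881 FPKM, a log2 difference of -2.85 (SE 0.35, limma adjusted p = 4.6e-06). For both, every storage library lay above every basal one, and storage replicate 3 was the highest. Toward basal clove the largest differences were those of Asa7G03238.1 and Asa7G01197.1. Asa7G03238.1 was at 810.2, 511 and 639 FPKM in basal clove, whereas storage clove had 101, 137 and 163 FPKM, 2.28 higher in basal clove on the log2 scale (SE 0.34, limma adjusted p = 3.2e-05). Asa7G01197.1 was at 110.3, 141 and 127 FPKM against 33.0, 30 and 30.3 FPKM, 1.98 higher (SE 0.14, limma adjusted p = 2.1e-08).

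At dormancy the tissues stood further apart. Of the 42 genes, 33 were lower in basal clove and 2 were higher. Those are 78.6% and 4.76%, where 23.1% and 34.6% of all genes tested and 38.7% and 31.0% of the 7177 genes were called. Of the 33, 30 had a log2 difference of 1 or more, a count that was not made over other genes. The median level of the 42 genes was 89.8 FPKM in basal clove, whereas storage clove had 315 FPKM, and their median log2 difference was -1.74, against 0.10 for all genes tested and -0.06 for the 7177. Dormant means were also the denominators of the rule, so a gene with a high dormant mean was more easily chosen, in either tissue. By both calls together, 21 of the 42 were lower in basal clove in enlarging and in dormant bulbs, against 13.6% of all genes tested and 23.2% of the 7177. A further 9, 21.4%, were lower at dormancy with no call in enlarging bulbs, against 8.43% and 12.6%.

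Asa0G04006.1 and Asa7G03238.1 had the largest differences at dormancy. Asa0G04006.1 was at 132, 115 and 125 FPKM in basal clove, whereas storage clove had 2458, 5235 and 3495 FPKM, a log2 difference of -4.83 (SE 0.34, limma adjusted p = 5.3e-09). Asa7G03238.1, which had been higher in basal clove of enlarging bulbs, now had a log2 difference of -4.78 (SE 0.34, limma adjusted p = 5.2e-09). The genes still higher in dormant basal clove were Asa6G03213.1 and Asa7G01197.1. Asa6G03213.1 was at 249.9, 123 and 291 FPKM against 38.9, 39.8 and 54.3 FPKM in storage clove, 2.22 higher on the log2 scale (SE 0.26, limma adjusted p = 2.1e-06). Asa7G01197.1 differed less, at 93.1, 107 and 70.6 FPKM against 66.1, 59.1 and 62.1 FPKM, 0.50 higher (SE 0.14, limma adjusted p = 0.0065).

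**Figure D4:**
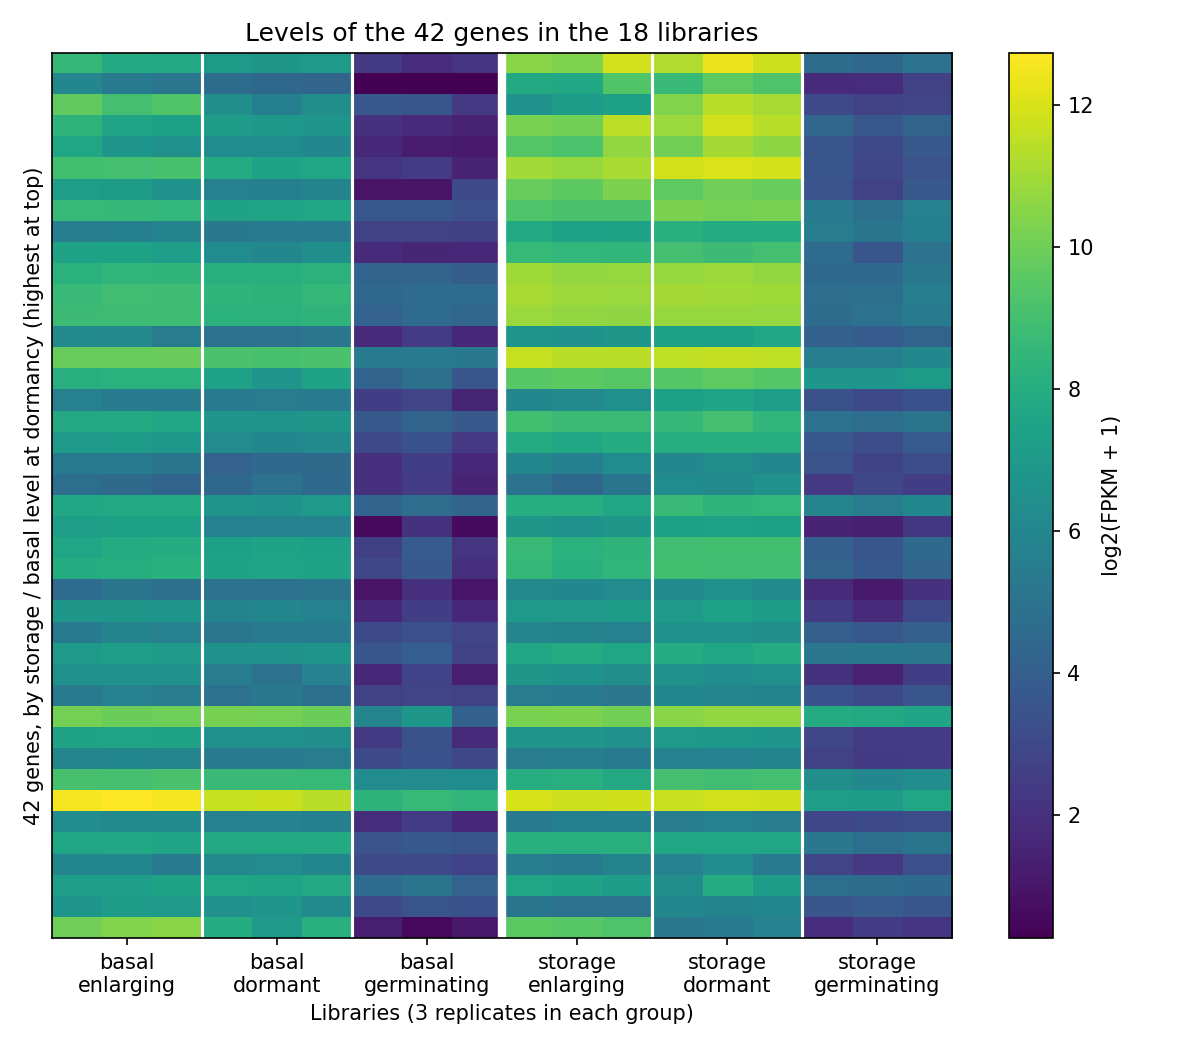
Level of each of the 42 genes (rows, ordered by the ratio of storage to basal mean at dormancy, highest at the top) in each of the 18 libraries (columns, replicates 1 to 3 from left to right in each group), as log2(FPKM + 1) by colour. The germinating columns are the darkest of both tissues, and for most rows the enlarging and dormant storage columns are brighter than the basal ones.

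From enlarging to dormant bulbs most of the 42 genes fell in basal clove, while rises outnumbered falls in storage clove. In basal clove 26 of them fell from enlarging to dormant and none rose by the limma test (1 rose at an unadjusted p below 0.05, and 1 with voom on recovered reads). Falls of 61.9% compare with 15.0% of all genes tested and 28.3% of the 7177, and rises were called for 16.5% and 22.9% of those. In storage clove 13 of the 42 rose and 2 fell, 31.0% and 4.76%. There, 6.14% of all genes tested rose and 14.1% fell, and of the 7177 genes 10.8% and 18.1%. The median log2 change of the 42 was -0.73 in basal and 0.36 in storage clove, against -0.01 and -0.07 over all genes tested. Enlarging and dormant means both entered the rule, and how far the choice itself moved these shares was not tested. Of the 42 genes, 9 fell in basal and rose in storage clove, 21.4%, against 1.74% of all genes tested and 4.93% of the 7177. Another 16, 38.1%, fell in basal clove with no call in storage clove, against 10.7% and 19.7%. Without the pair of libraries that stood closer to the opposite tissue, 28 fell in basal clove and 11 rose in storage clove.

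Asa7G03238.1 had the largest fall of the 42 in basal clove and the largest rise in storage clove. It fell by 3.15 on the log2 scale in basal clove (SE 0.34, limma adjusted p = 8.0e-06), 8.87-fold from 653 ± 150.3 to 73.6 ± 21.8 FPKM (mean ± SD, n = 3 libraries). In storage clove it rose by 3.90 (SE 0.34, limma adjusted p = 1.1e-06), 15.4-fold from 134 ± 31.2 to 2068 ± 719 FPKM. Asa6G03213.1, in contrast, fell in both. It went from 1050.4, 1325 and 1447 FPKM to 249.9, 123 and 291 FPKM in basal clove, a log2 change of -2.60 (SE 0.26, limma adjusted p = 5.2e-06). In storage clove it went from 780, 708 and 636 FPKM to 38.9, 39.8 and 54.3 FPKM, a change of -3.98 (SE 0.26, limma adjusted p = 1.0e-07), so that most of its level there was gone before germination.

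The other members named for their change in storage clove were Asa3G02314.1 and Asa7G01529.1. Asa3G02314.1 rose there from 31.3, 21.2 and 33.9 FPKM to 78.1, 75.1 and 94.3 FPKM, by 1.51 on the log2 scale (SE 0.23, limma adjusted p = 0.00031). Its basal libraries overlapped, at 18.5 to 25.8 FPKM when enlarging and 20.9 to 28.9 FPKM when dormant, with a log2 change of 0.09 that was not called (limma adjusted p = 0.83). Asa7G01529.1 was lower in dormant storage clove, at 198, 189 and 197 FPKM against 287, 273 and 272 FPKM, a change of -0.51 (SE 0.10, limma adjusted p = 0.0013). The range of changes was therefore wide, from -3.98 to 3.90 in storage clove and from -3.15 to 0.36 in basal clove.

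The difference between the tissues in this change was tested itself, as an interaction. For 29 of the 42 genes the change was more positive in storage clove and for 2 in basal clove, 69.0% and 4.76%, where 11.0% and 17.6% of all genes tested and 23.1% and 24.0% of the 7177 were called. Without the same pair of libraries the counts were 30 and 2. The enlarging and dormant means behind this test also entered the choice of the 42 genes. The most negative interactions, basal minus storage change, were those of Asa7G03238.1, at -7.06 (SE 0.48, limma adjusted p = 2.6e-07), and Asa2G05822.1, at -2.36 (SE 0.28, limma adjusted p = 1.8e-05). The latter gene went from 502, 512 and 547 FPKM to 241, 182 and 189 FPKM in basal clove and from 2035, 1820.1 and 2207 FPKM to 3949, 4260.3 and 3954 FPKM in storage clove. The positive ones were Asa6G03213.1, at 1.38 (SE 0.37, limma adjusted p = 0.012), and Asa7G01529.1, at 0.73 (SE 0.14, limma adjusted p = 0.00085). Asa6G03213.1 thus fell in both tissues, and less in basal than in storage clove.

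**Figure D5:**
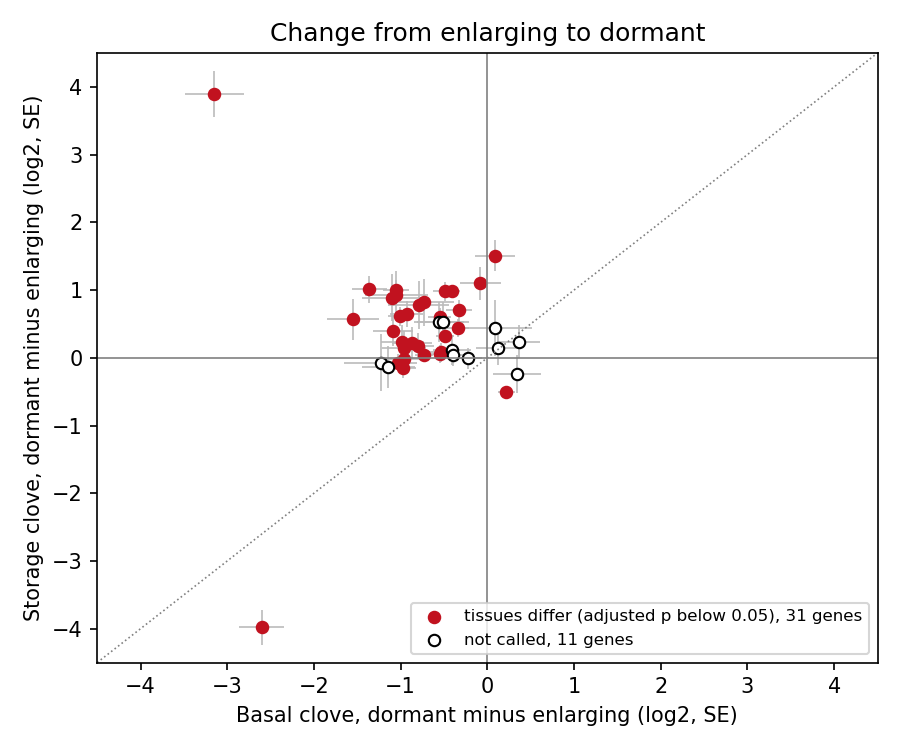
Change from enlarging to dormant bulbs in basal clove (horizontal axis) and storage clove (vertical axis), dormant minus enlarging in log2(FPKM + 1) with the SE of the fit, for the 42 genes; filled points are the 31 genes whose change differed between the tissues (interaction, limma adjusted p below 0.05), open points the other 11. Most points lie left of 0 and above the dotted line of equal changes, and Asa7G03238.1 lies alone at the upper left.

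By their highest group, 27 of the 42 genes peaked in dormant storage clove, 6 in enlarging storage clove, 7 in enlarging basal clove and 2 in dormant basal clove. Under the rule no germinating group could be the highest, and genes with high dormant means were more easily chosen. The count is thus a description, and it was not made over other genes. Across the 12 enlarging and dormant libraries, the Spearman correlation between pairs of the 42 genes had a median of 0.594 over 861 pairs, with 274 pairs above 0.8 and 221 below 0. Tissue and stage differ among these libraries, so both enter every correlation. Asa7G01197.1 had the lowest median correlation with the other members, at -0.559.

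Some members carry neighbouring ID numbers. Whether neighbouring numbers are neighbours on a chromosome is not stated. In 5 runs of IDs at most 2 apart there were 13 of the 42 genes. The longest ran from Asa8G05233.1 to Asa8G05236.1, with coding lengths of 381, 441, 618 and 267 bp. Its 4 genes kept 7.37%, 6.50%, 6.57% and 6.11% of the dormant level in basal clove and 1.78%, 1.78%, 1.62% and 1.54% in storage clove, so the falls were nearly alike. Their correlations over the 12 earlier libraries were 0.944 to 0.986. The IDs on either side had little expression, at 0 FPKM in every library for Asa8G05232.1 and at most 1.62 FPKM in group mean for Asa8G05237.1.

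Most of the other expressed neighbours kept more of their level. The IDs named here, of further runs and next to them, were chosen after their values were seen. Of the 69 IDs next to a member that were not members, 11 reached the minimum level before germination, and they kept 39.4% to 1503% of the dormant level in basal clove and 11.1% to 699% in storage clove, with 1 of them at or below the limit of 20% in 1 tissue. As non-members at that level, each had to keep more than 20% in at least 1 tissue. Their contrast with the members is therefore partly set by the rule and is a description. In the run of Asa8G03766.1, Asa8G03768.1 and Asa8G03769.1, coding lengths of 156, 243 and 246 bp, the members kept 12.7%, 9.56% and 5.87% in basal clove and 16.3%, 9.41% and 13.8% in storage clove. The ID before them, Asa8G03765.1, was at 868 FPKM in enlarging basal clove, where Asa8G03769.1 was at 1025 FPKM, and at 2767 FPKM in enlarging storage clove, where it was at 1176 FPKM. Asa8G03765.1 kept more than all 3 members, 44.9% in basal and 32.5% in storage clove. The runs of Asa6G04259.1 and Asa6G04260.1 and of Asa8G02713.1 and Asa8G02714.1 kept 5.23% and 5.52%, and 4.04% and 4.58%, in basal clove. Asa6G04258.1, next to the former pair, was instead higher at germination, at 302% of its dormant mean in basal and 309.9% in storage clove.

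Coding lengths were short in the set. The median was 468 bp for the 42 genes and 891 bp for the 7177 genes at the same minimum level. It was 696 bp for the 105 genes at that level lost in storage clove only and 559.5 bp for the 20 lost in basal clove only. Of the 42 genes 52.4%, against 24.9% of the 7177, were no longer than 500 bp. Pairs of members shared lengths of 246, 366 and 378 bp, with Spearman correlations of 0.58, -0.35 and 0.678 over the 12 earlier libraries. A length of exactly 465 bp, found for 20 of the 7177 genes, was shared by Asa0G03404.1, Asa0G04006.1, Asa7G03244.1 and Asa7G03267.1, which were set side by side after their values were seen. Their levels rose and fell together library by library, with Spearman correlations of 0.993 to 1.0 over the 12 earlier libraries. In storage clove replicate 3 was the highest when enlarging, with Asa0G04006.1 at 3764 FPKM against 1455 and 1288 FPKM and Asa0G03404.1 at 1659 FPKM against 681 and 588 FPKM. Replicate 2 was the highest when dormant, with 5235 against 2458 and 3495 FPKM and 2145 against 1083 and 1581 FPKM. Whether the authors' counting shared reads between near-identical copies is not stated in the labels, so the separate levels of these 4 genes, and of genes within a run, are uncertain.

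Near the limits of the rule the choice is a matter of small differences. The largest kept shares inside it, taking the larger of both tissues, were 19.0%, 18.8% and 18.7%, and the nearest outside were 20.4%, 20.4% and 20.5%. The lowest group means inside were 20.6, 21.7 and 22.4 FPKM, and the nearest outside 16.0, 14.3 and 13.9 FPKM.

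Genes at the same minimum level that passed the limit in 1 tissue only resembled the 42 in part. Of the 105 lost in storage clove only, 56.2% fell from enlarging to dormant in basal clove and 34.3% rose in storage clove, where the 42 had 61.9% and 31.0%. Of the same 105, 66.7% were lower in basal than in storage clove when dormant and 59% had the more positive change in storage clove, where the 42 had 78.6% and 69%. They differed in median level, at 129 and 139 FPKM in enlarging and dormant storage clove against 249 and 315 FPKM. Of the 20 lost in basal clove only, 30% fell in basal clove from enlarging to dormant, 25% rose in storage clove, 50% were lower in basal than in storage clove when dormant and 35% had the more positive change in storage clove. These contrasts between lists are descriptions, since genes are not replicates.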

How the data were processed

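The authors deposited 1 table of FPKM values with 18 library columns, per the file headers. Reads were aligned with HISAT2, per the submitters' processing notes, without a version. For the read counter, genome build, annotation and strand setting: not given in the sources used here. All 42 members, the lists and the comparisons were chosen with earlier results of these data known. Whole reads and coding lengths were recovered from the steps of the FPKM values, with 1 whole length sought per gene. The shortest length was taken at which all values of the gene were whole within 0.01 reads at the library totals found. Such a length was found for all 595800 values above 0, so that 100% were whole follows from the search and is no separate check. For a length of 1 kb, 3 reads are 0.137 to 0.459 FPKM. Of the lengths of genes with over 100 reads, 95.2% were multiples of 3, so they are called coding lengths. The test was limma 3.58.1 in R 4.3.3 on log2(FPKM + 1), with the prior variance following mean expression, for the 30530 genes with at least 1 FPKM in at least 3 libraries, in 1 model of the 6 group means. It gave 5 comparisons, adjusted within each by Benjamini-Hochberg over all genes. No pair of replicates agreed within sampling noise (chi-square per gene 2.68 to 65.9). The highest values, 39.8 and 65.9, were those of pairs of germinating basal libraries. Genes named were, in each comparison, up to 2 higher and 2 lower members with the largest difference among those called whose libraries did not overlap (no such condition for the interaction), the 2 keeping least in each tissue and the 2 most abundant, with neighbours in runs of IDs. Alternatives were another pseudocount, filter, scaling, variance model, library weights, replicate block, voom, fits of the compared groups alone and leaving out each library.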

Additional observations from a re-analysis of the deposited data

Results flagged for a closer look

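The change from enlarging to dormant bulbs differed between basal and storage clove, by the interaction test in limma, for 31 of the 42 genes. It was more positive in storage clove for 29 and in basal clove for 2, 69.0% and 4.76%. Over all genes tested the shares were 11.0% and 17.6%, and over the 7177 at the same minimum level 23.1% and 24.0%. Of the 105 genes lost in storage clove only, 59% had the more positive change in storage clove. The enlarging and dormant means entered the choice of these genes, so the excess over other genes is a description. The members named for it were Asa7G03238.1, with a basal change minus storage change of -7.06 on the log2 scale, and Asa2G05822.1, with -2.36, whose libraries moved in opposite directions in the tissues without overlap. Asa6G03213.1, at 1.38, fell in both tissues and more in storage clove, and Asa7G01529.1, at 0.73, fell in storage clove and had no call in basal clove.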

How the results depend on the processing

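The number of members was 22 at a limit of 10% kept, 116 at 30% and 27 at a minimum of 50 FPKM; median-ratio scaling gave 36, all among the 42, and the rule in every single library 29. Leaving out 1 library (or the pair named in the report, a choice made after seeing the data) gave 41 to 46 members. Members rising from enlarging to dormant in basal clove, 0 in the fit reported, were 1 with median-ratio scaling, with library weights and with voom on recovered reads, and 2 with only the groups compared; leaving out libraries gave 0 to 1 (1 without storage germinating replicate 2). The library weights stopped short of their convergence tolerance. The other 9 counts of called members stayed within 1.5 times in all alternatives, and the log2 differences of named members kept their direction and call in 540 of 540 refits. With the replicate block the members called lower in basal clove were 22 in enlarging and 33 in dormant bulbs, and 27 fell into dormancy in basal and 12 rose in storage clove. Same-numbered libraries did not deviate together (correlations of -0.202 to 0.0916), so the numbers were not taken to pair them. Leaving out libraries gave 22 to 28 falls in basal and 10 to 14 rises in storage clove. Dormant storage clove had the fewest reads.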
